A study of Danio rerio with 4 samples.

Results

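The integrin subunit genes were described as a family in epicardial-derived cells of the regenerating zebrafish heart. A gene was a member when its symbol began with itga or itgb followed by the digit or letter of a subunit. Of 20905 genes with transcripts, 31 were members, 20 of them alpha and 11 beta subunits. The name table held 3 further subunit genes without a row in these files, ITGA4, itgae.1 and an ITGB1 gene (ENSDARG00000104484), and 2 genes were left out by the rule because they name no subunit, ITGB1BP1 and ITGBL1. Symbols followed the name table, which gives many zebrafish genes the mammalian spelling, so that ITGB1, ITGB3 and ITGA11 each stand for more than 1 gene and are told apart by ID. A further 4711 genes with a row had no symbol and could hold subunits that were not counted.

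Cells were sorted one per well from ventricles at 7 days post-injury (dpi) after cryoinjury, on 2 plates with prrx1b-/- cells and 2 plates with WT cells. The mutants were homozygous for prrx1b el491, a nonsense mutation upstream of the DNA-binding domain of this homeobox transcription factor, and the WT fish were siblings. All fish, of both sexes and about 4 to 18 months old, carried single copies of Tg(tcf21:CreERT2) and Tg(ubi:loxP-EGFP-loxP-mCherry), the line that the labels name Tg(tcf21:mCherry), and had been given 4-hydroxytamoxifen from 1 to 5 days post fertilization. The tcf21 promoter drives the Cre recombinase in the epicardium, and recombination in the embryo marks only a subset of the cells that derive from it. Each genotype was pooled from 20 hearts, and no source ties hearts to plates. The p-values therefore measure the spread between plates, which may be technical and which edgeR estimates in part from all genes together. Genotype cannot be told apart from the pool of hearts it was sorted from.

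Integrins are cell surface receptors made of 1 alpha and 1 beta subunit, and the pair decides what the receptor binds. Alpha 5 and alpha v receptors bind fibronectin and other ligands with an RGD motif, alpha 1, 2, 10 and 11 bind collagens, alpha 3 and 6 bind laminins of the basement membrane, and the beta 2 receptors belong to leukocytes. Inside the cell, talin, kindlin, the ILK complex and focal adhesion kinase couple the beta tail to actin. In the heart, integrins hold epicardial cells on their basement membrane and fibroblasts in the matrix of a wound.

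Wells with at least 1000 transcripts were kept, which left 366 and 366 wells on the prrx1b-/- plates and 357 and 364 on the WT plates, 1453 of 1536 in all. The prrx1b-/- plates were deeper, with 3773059 and 3458835 transcripts and medians of 7654 and 7543 per well, against 2914680 and 2628354 transcripts and medians of 6055 and 5066 on the WT plates. TCF21, the gene whose promoter marks the lineage, was found in 34.4% to 42.9% of the wells of a plate, and the injury epicardium gene wt1b in 49.9% to 63.7%. The gene that carries the mutation could not be checked: both rows named PRRX1 share their symbol, and a tag from the 3' end of a transcript with a nonsense mutation still counts. Of the lists for other cell types, erythrocyte markers summed to 9.83 to 10.7 CPM (counts of a gene or list per 1000000 transcripts of the plate). Endothelial markers summed to 85.8 to 94.1 CPM in 31.9% to 44% of the wells of a plate. Most of that sum, 75.8 to 84.6 CPM, came from a single CLDN5 gene. Thrombocyte markers, which include the kindlin gene FERMT3 and THBS1, summed to 194 to 279 CPM in 40.6% to 57.9%. Of these, 157 to 233 CPM came from THBS1, which is also listed as an integrin ligand below. WT plate 1 stood apart, with 149 CPM on 9 cardiomyocyte markers, against 17.9 to 45.4 CPM on the other plates, and 49.8 CPM on 7 leukocyte markers, against 11.1 to 17.1 CPM. The part of these cells in the results below was not tested, and calls of members that were lost without WT plate 1 are named.

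Integrin transcripts made up 0.12% of all transcripts, 15277 in number, and 84.6% of them came from 4 genes: an ITGB1 gene, ITGAV, ITGA5 and ITGA1. Each molecule was counted once from its 3' end, without scaling for transcript length, so the CPM values can be ordered between genes only as numbers of counted transcripts. In that order, the abundant ITGB1 gene lay above ITGAV, and ITGA5 above ITGA1, which lay above itgb2, with no overlap between the 4 plate values of these neighbours. ITGAV and ITGA5 overlapped and cannot be ordered beyond their spread. From ITGB5 downwards, the plate values of nearly all neighbours overlapped.

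**Figure D1:**
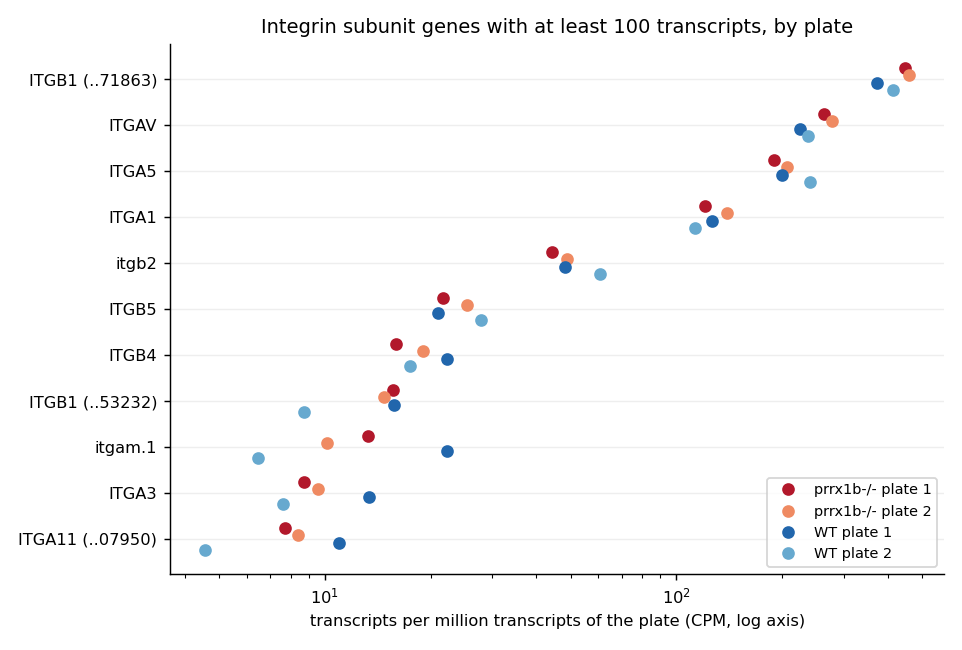
Level of the 11 integrin subunit genes with at least 100 transcripts, in CPM on a log axis, with 1 point for each plate (prrx1b-/- in red tones, WT in blue tones); a symbol shared by several genes carries the last digits of its ID. The abundant ITGB1 gene lies at 371 to 459 CPM and the lowest of the 11, an ITGA11 gene, at 4.57 to 11 CPM.

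Among the RGD receptors, ITGAV (ENSDARG00000006314), the alpha v chain that binds vitronectin and activates latent TGFβ, reached 263 and 278 CPM on the prrx1b-/- plates, against 225 and 236 CPM on the WT plates. The genotypes did not overlap, and ITGAV was found in 942 wells. ITGA5 (ENSDARG00000006353), the alpha chain of the classical fibronectin receptor, reached 190 and 207 CPM on the prrx1b-/- plates, against 199 and 240 CPM on the WT plates, and the genotypes overlapped. itga2b, the alpha chain of the thrombocyte fibrinogen receptor, had 1 transcript in all. A count of 0 on a plate allows up to 3 transcripts, or 0.795 and 0.867 CPM on the prrx1b-/- plates and 1.03 and 1.14 CPM on the WT plates, counting error only.

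The collagen receptors were represented by ITGA1 (ENSDARG00000074316), an alpha chain known from smooth muscle and fibroblasts, with 121 and 139 CPM on the prrx1b-/- plates, against 126 and 113 CPM on the WT plates. The genotypes overlapped, and ITGA1 was found in 686 wells. The more abundant of the ITGA11 genes (ENSDARG00000007950), in mammals a collagen receptor of fibroblasts, had 7.69 and 8.38 CPM on the prrx1b-/- plates, against 11 and 4.57 CPM on the WT plates. It was therefore both highest and lowest in WT, and rested on 102 transcripts in 67 wells. The collagen class as a whole held 21.8% and 22.6% of the alpha transcripts on the prrx1b-/- plates, against 22.2% and 19.5% on the WT plates.

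The laminin receptors were rare. ITGA3 (ENSDARG00000012824), the alpha 3 chain of epithelia, had 8.75 and 9.54 CPM on the prrx1b-/- plates, against 13.4 and 7.61 CPM on the WT plates, and was found in 89 wells. ITGB4 (ENSDARG00000028507), the beta chain that pairs only with alpha 6 and anchors hemidesmosomes, had 15.9 and 19.1 CPM on the prrx1b-/- plates, against 22.3 and 17.5 CPM on the WT plates. For both genes, the WT values enclosed the prrx1b-/- values or overlapped them. Together, the laminin alpha chains made up 2.87% and 3.38% of the alpha transcripts on the prrx1b-/- plates, against 4.61% and 2.58% on the WT plates.

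Of the beta subunits, the abundant ITGB1 gene (ENSDARG00000071863), the common partner of most alpha chains, reached 447 and 459 CPM on the prrx1b-/- plates, against 371 and 413 CPM on the WT plates. The genotypes did not overlap, and 1241 of the 1453 wells held it. The second ITGB1 gene (ENSDARG00000053232) had 15.6 and 14.7 CPM on the prrx1b-/- plates, against 15.8 and 8.75 CPM on the WT plates. ITGB5 (ENSDARG00000012942), a partner of alpha v, had 21.7 and 25.4 CPM on the prrx1b-/- plates, against 20.9 and 27.8 CPM on the WT plates. The genotypes overlapped for the second ITGB1 gene and for ITGB5. The abundant ITGB1 gene thus provided 79.9% and 79.5% of the beta transcripts on the prrx1b-/- plates, against 74.4% and 76.4% on the WT plates.

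The leukocyte class was carried by itgb2 (ENSDARG00000016939), the common beta chain of leukocyte integrins, with 44.3 and 48.9 CPM on the prrx1b-/- plates, against 48.4 and 60.5 CPM on the WT plates. The genotypes overlapped. itgb2 was found in 412 wells, 28.4% of all, whereas any of 7 leukocyte markers was found in 7.14% to 10.4% of the wells of a plate. Of the wells with itgb2, 8.01% held a leukocyte marker, against 8.55% of the wells without it, at medians of 10268 and 5698 transcripts per well. Both itgb2 and the pan-leukocyte gene ptprc were found in 4 wells. Over all plates, leukocyte markers stood at 27.3 CPM in the wells with itgb2, against 19.1 CPM in the wells without it. Only WT plate 1 had this direction, at 93.2 CPM against 22 CPM. The prrx1b-/- plates had 6.66 CPM against 14.1 CPM and 10 CPM against 21.8 CPM. WT plate 2 had 9.68 CPM against 19.4 CPM. itgam.1 (ENSDARG00000002956) is an alpha chain of myeloid cells and a partner of beta 2. It had 13.3 and 10.1 CPM on the prrx1b-/- plates, against 22.3 and 6.47 CPM on the WT plates. Its highest value was on WT plate 1, whereas that of itgb2 was on WT plate 2. On WT plate 1, leukocyte markers stood at 22.8 CPM in the wells with itgam.1, against 55.1 CPM in the wells without it. A leukocyte marker was found in 17.4% of the former and 9.32% of the latter.

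The other 20 members had fewer than 100 transcripts each and mean levels of 0.07 to 6.69 CPM over the 4 plates. Next to itga2b, itga6l and ITGB8, a partner of alpha v, had a single transcript each, all 3 of them on prrx1b-/- plate 2. Of the 31 members, 26 and 30 had a transcript on the prrx1b-/- plates, and 28 and 28 on the WT plates.

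A well held up to 11 integrin genes, and 41 wells held none. The mean number was 3.95 and 3.92 on the prrx1b-/- plates, against 3.64 and 3.18 on the WT plates. This number moved with depth: wells at or above the median depth of their plate held 4.24 to 5.05 integrin genes on average, and wells below it 2.12 to 2.92. After each well was thinned to 1000 transcripts, the mean was 1.07 and 1.03 on the prrx1b-/- plates, against 0.975 and 1.01 on the WT plates.

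**Figure D2:**
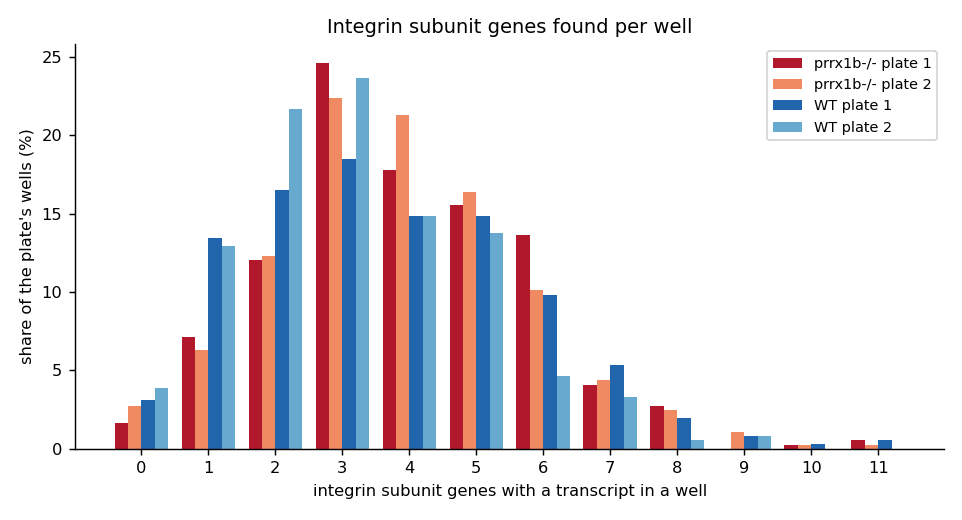
Share of the wells of each plate, in %, by the number of integrin subunit genes with a transcript in the well, with 4 bars per number (prrx1b-/- in red tones, WT in blue tones). Most wells hold 1 to 6 integrin genes, and the prrx1b-/- plates, which are deeper, have fewer wells with 1 or 2.

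At least 1 alpha and 1 beta transcript were found in 87.4% and 85.8% of the wells on the prrx1b-/- plates, against 76.5% and 76.9% on the WT plates. The genotypes did not overlap, and the difference of 9.92 percentage points had the smallest p that 4 plates allow in a two-sided exact permutation test (p = 0.333). With every well thinned to 1000 transcripts, the shares were 19.7% and 19.9% on the prrx1b-/- plates, against 17.9% and 17.9% on the WT plates, a difference of 1.92 points. All 4 leading genes were found together in 27.3% and 28.1% of the wells on the prrx1b-/- plates, against 17.9% and 16.8% on the WT plates, without thinning.

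The textbook pairs were looked up in the wells for 16 combinations whose genes were both in at least 50 wells. In 15 of them, the beta gene was found more often in wells with the alpha gene than in other wells, and in all but the ITGA11 pairs the wells with the alpha gene were also the deeper ones. In wells thinned to 1000 transcripts, the beta gene was found more often in 8 of the 16 pairs and less often in the other 8, among them ITGAV with either ITGB1 gene or with ITGB5, and ITGA1 and ITGA5 with the abundant ITGB1 gene. The most marked was the hemidesmosome pair: ITGB4 was found in 47.1% of the 51 wells with itga6b, against 7.56% of the other wells, at medians of 15724 and 6366 transcripts per well, and the share was higher on all 4 plates. The second ITGB1 gene was found in 27% of the 89 wells with ITGA3, against 7.84% of the other wells, at medians of 14005 and 6312 transcripts. Thinning left 9 wells with itga6b, 1 of them with ITGB4, and 12 wells with ITGA3, none of them with the second ITGB1 gene, too few to set against the rest.

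The exception was the more abundant ITGA11 gene. Only 1 of its 67 wells held the second ITGB1 gene, or 1.49%, against 9.38% of the other wells, at medians of 6293 and 6618 transcripts per well. The abundant ITGB1 gene was found in 88.1% of the wells with ITGA11, against 85.3% of the other wells. The fibronectin receptor pair, ITGA5 with the abundant ITGB1 gene, was found in 778 wells, or 92.7% of the wells with ITGA5, against 75.4% of the other wells. After thinning, this came to 32.7% of the wells with ITGA5, against 34.9% of the other wells.

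The study compares the genotypes, and the 19 members that passed the filter on low counts were tested in one fit over all genes. No member passed edgeR's quasi-likelihood test at an adjusted p under 0.05, none had an unadjusted p under 0.05, and DESeq2 called none either. Of all 11191 genes tested, 0.357% were called higher and 0.617% lower in prrx1b-/- cells. Of the 19 members, 8 had a log2 fold change above 0 and 11 below, with a median of -0.14, against -0.01 over all genes tested. The plates of the genotypes did not overlap for 6 of the 19 members, or 31.6%, against 44.8% of all genes tested.

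Of the 4 leading genes, ITGAV and the abundant ITGB1 gene (ENSDARG00000071863) were those without overlap between the genotypes. ITGAV had a log2 fold change of 0.25 ± 0.14 (SE; 2 plates per genotype; edgeR, adjusted p = 0.453). The abundant ITGB1 gene had 0.22 ± 0.14 (SE; edgeR, adjusted p = 0.508). ITGA1 stood at 0.14 ± 0.15 and ITGA5 at -0.14 ± 0.15. Among the alpha transcripts, ITGAV took 41.9% and 40.6% on the prrx1b-/- plates, against 34.7% and 37.3% on the WT plates, and ITGA5 took 30.2% and 30.2% on the prrx1b-/- plates, against 30.8% and 37.9% on the WT plates. Neither share overlapped between the genotypes, at the smallest possible two-sided exact permutation p of 0.333.

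**Figure D3:**
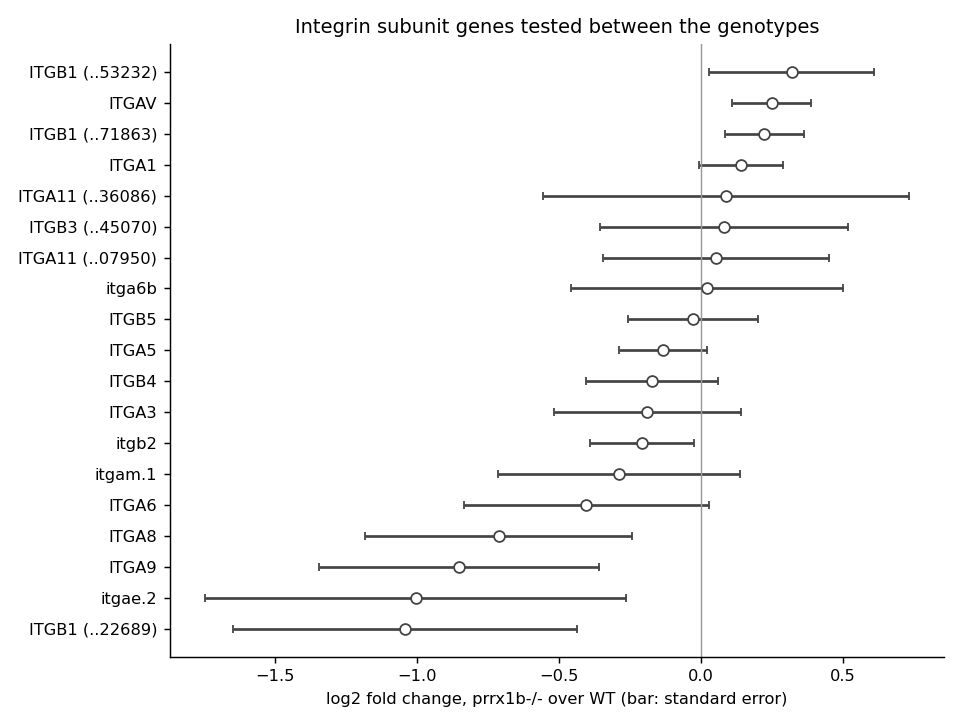
Log2 fold change, prrx1b-/- over WT, of the 19 integrin subunit genes tested, with bars for the standard error (2 plates per genotype). No gene passed the test, and rare genes, such as itgae.2 with 68 transcripts, have wide bars.

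Summed over all members, integrins stood at 1188 and 1263 CPM on the prrx1b-/- plates, against 1147 and 1174 CPM on the WT plates. These values did not overlap (two-sided exact permutation p = 0.333). Alpha subunits summed to 628 and 685 CPM on the prrx1b-/- plates, against 647 and 633 CPM on the WT plates, and overlapped. Beta subunits summed to 560 and 578 CPM on the prrx1b-/- plates, against 499 and 541 CPM on the WT plates, and did not overlap.

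Outside the cell, 41 integrin ligand genes were tested between the genotypes, of which 2 were called higher and 1 lower in prrx1b-/- cells, beside 0.357% higher and 0.617% lower among all genes, with a median log2 fold change of 0.19, against -0.01 over all genes. Some markers of cell states moved alongside. The 9 mural markers had a median of 0.35, with 3 of them at an unadjusted p under 0.05 and none called, and the lowest, a TAGLN gene, at -0.24. Among the 4 injury epicardium markers, cldc1 was called higher (0.81 ± 0.15 SE, edgeR adjusted p = 0.0314). ALDH1A2, wt1b and adh8a, at 0.26, 0.16 and 0.008, were not called. The fibroblast markers had a median of 0.096 and none called. Of these, 3 had an unadjusted p under 0.05: POSTN (1.15), an FSTL1 gene (0.42) and a PTX3 gene (-0.47). The remote epicardium markers had a median of 0.03. Their part in the ligand values was not tested. CCN2, a matricellular protein that binds alpha v receptors, had 1273 and 1133 CPM on the prrx1b-/- plates, against 585 and 758 CPM on the WT plates (log2 fold change 0.85 ± 0.17 SE, edgeR adjusted p = 0.0400). TNC (ENSDARG00000021948), the tenascin C of wounds, had 27.8 and 49.5 CPM on the prrx1b-/- plates, against 88.3 and 109 CPM on the WT plates (-1.34 ± 0.24 SE, edgeR adjusted p = 0.0303). The other gene with this symbol (ENSDARG00000078362) was not among those tested. LAMB2, a laminin beta chain, had 143 and 155 CPM on the prrx1b-/- plates, against 80.6 and 95.1 CPM on the WT plates (0.78 ± 0.16 SE, edgeR adjusted p = 0.0477). None of the 3 overlapped between the genotypes, nor did 44.8% of all genes tested, so a lack of overlap, here and below, sets no gene apart. All 3 calls were lost without prrx1b-/- plate 1, and those of CCN2 and LAMB2 without prrx1b-/- plate 2. Those of TNC and LAMB2 were lost after thinning to 1000 transcripts. Those of CCN2 and LAMB2 were lost with wells of at least 2000 transcripts, and that of LAMB2 also with RLE scaling.

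The most abundant ligand genes did not pass the test. The main FN1 gene (ENSDARG00000006526), one of the fibronectins, stood far above the receptors, with 21531 and 23897 CPM on the prrx1b-/- plates, against 15370 and 17469 CPM on the WT plates, without overlap (log2 fold change 0.48 ± 0.15 SE, edgeR adjusted p = 0.174). CCN1, another matricellular ligand of alpha v, had 1832 and 1959 CPM on the prrx1b-/- plates, against 1221 and 1451 CPM on the WT plates (0.52 ± 0.15 SE, edgeR adjusted p = 0.136). The other 4 of the 6 highest were COL1A1, col1a1a and COL1A2, the chains of collagen I, and the second FN1 gene (ENSDARG00000019815), with log2 fold changes of 0.02 to 0.24.

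Inside the cell, 44 adhesion adaptor and kinase genes were tested, and none was called in either direction by edgeR, with 9 at an unadjusted p under 0.05, while DESeq2 called 1 higher. The median log2 fold change was 0.12. The 6 most abundant were DAB2, an endocytic adaptor that binds beta tails, the tetraspanin CD81, the actin crosslinker flna, TNS1, a tensin, BCAR1, the scaffold p130Cas, and rap1b, a GTPase that activates integrins. TNS1 had 437 and 396 CPM on the prrx1b-/- plates, against 308 and 357 CPM on the WT plates, and BCAR1 281 and 352 CPM on the prrx1b-/- plates, against 189 and 254 CPM on the WT plates. Both were without overlap and not called (edgeR adjusted p = 0.335 and 0.213).

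Where among the sorted cells each subunit was found was asked with 4 marker lists that hold no integrin: remote epicardium (tcf21, tbx18, rtca), injury epicardium (wt1b, aldh1a2, adh8a, cldc1), fibroblast and mural. For each list, the upper 25% of the wells of a plate by the mean z score of the markers were called marker-high and were compared with the rest of the wells of the same plate. Marker-high is the end of a range and not a cell type, and up to 36 wells of a plate lay within 0.05 of the cut in score. Mural marker-high wells took up 25.8% to 38.5% of the remote epicardium marker-high wells of a plate and 4.35% to 6.59% of the injury epicardium ones. Depth moved with the lists. Per plate, median transcripts were 7147 to 10865 in injury epicardium marker-high wells against 4176 to 6714 in the rest, and 10299 to 15728 in fibroblast marker-high wells against 4004 to 6518 in the rest. They were 3932 to 7084 in remote epicardium marker-high wells against 5750 to 8328 in the rest, and 3257 to 5977 in mural marker-high wells against 6053 to 8907 in the rest.

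**Figure D4:**
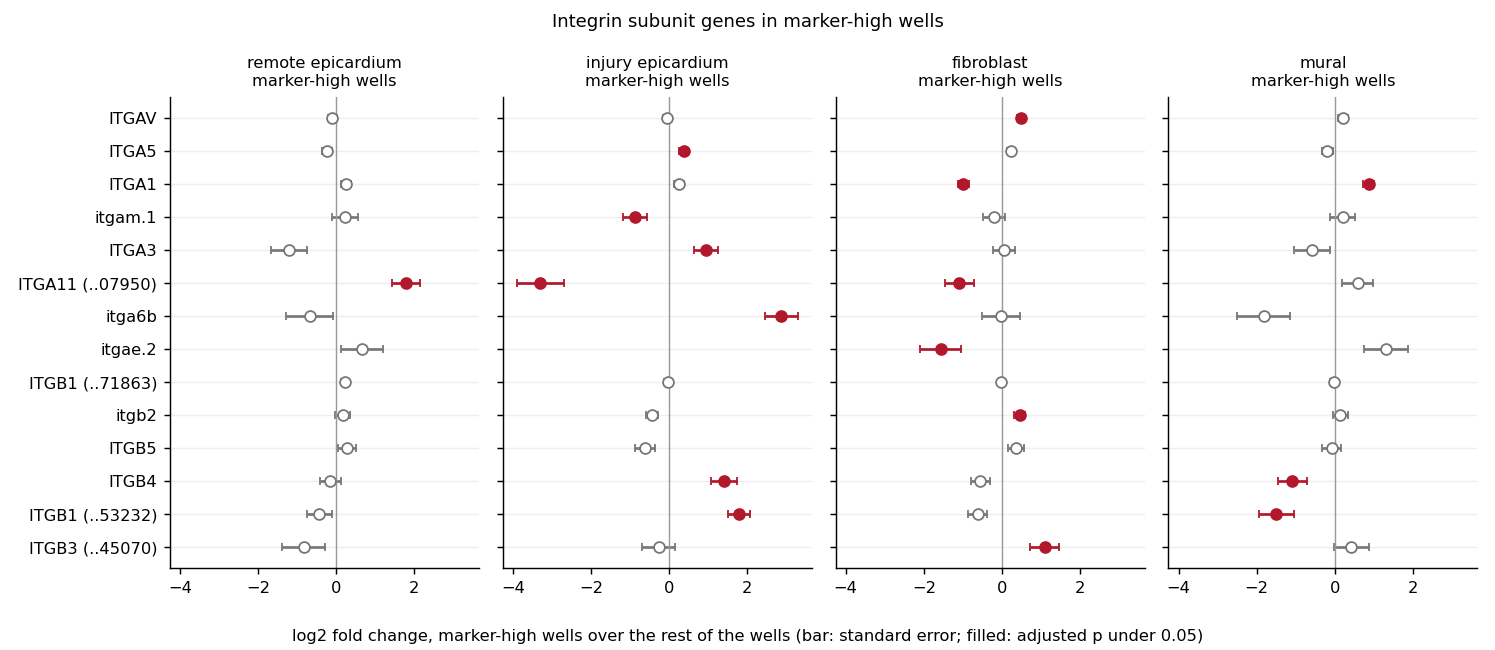
Log2 fold change, marker-high wells over the rest of the wells of the same plate, of integrin subunit genes, with bars for the standard error (4 plates, plate as a block) and filled points for genes with an adjusted p under 0.05; genes not tested for a list have no point. Injury epicardium marker-high wells have itga6b, a second ITGB1 gene, ITGB4, ITGA3 and ITGA5 to the right of 0, and fibroblast and mural marker-high wells have ITGA1 on opposite sides.

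In injury epicardium marker-high wells, itga6b and the second ITGB1 gene were higher and the more abundant ITGA11 gene was almost absent. Of 13 members tested, 5 were called higher and 2 lower, or 38.5% and 15.4%, against 12.8% and 10.6% of all 9789 genes tested. The 5 were itga6b, the second ITGB1 gene, ITGB4, ITGA3 and ITGA5, and the 2 were ITGA11 and itgam.1. In the rest of the wells, itga6b had only 7 and 6 transcripts on the prrx1b-/- plates and 5 and 1 on the WT plates. It therefore passed the filter on low counts through the marker-high wells, and ITGA11 and itgam.1 passed it through the rest. Such rare members reached the test through the wells where they were high, so the shares called do not measure the family. Not all laminin receptor chains followed: ITGA6 averaged 5.47 CPM in marker-high wells and 4.31 CPM in the rest, and itga3a 0.753 CPM in marker-high wells and 1.16 CPM in the rest, each higher on 2 of 4 plates and too rare to be tested.

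itga6b (ENSDARG00000069946), an alpha 6 chain, had 10.1 and 18.4 CPM in the marker-high wells of the prrx1b-/- plates and 22.3 and 9.28 CPM in those of the WT plates, against 2.71 and 2.53 CPM in the rest of the prrx1b-/- plates and 2.60 and 0.534 CPM in the rest of the WT plates. The 2 sets of wells did not overlap, and 61 of its 80 transcripts came from the marker-high wells. The log2 fold change was 2.88 ± 0.41 (SE, n = 4 plates, edgeR adjusted p = 1.48e-05), or 7.34-fold. In wells thinned to 1000 transcripts and chosen anew, itga6b averaged 22 CPM in marker-high wells and 0.916 CPM in the rest, higher on 4 of 4 plates, from 8 transcripts and 1 transcript.

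The second ITGB1 gene (ENSDARG00000053232) had 32.9 and 33.1 CPM in the marker-high wells of the prrx1b-/- plates and 23.3 and 13.3 CPM in those of the WT plates, against 7.73 and 6.33 CPM in the rest of the prrx1b-/- plates and 11.9 and 6.94 CPM in the rest of the WT plates. The sets did not overlap, and the log2 fold change was 1.79 ± 0.29 (SE, n = 4 plates, edgeR adjusted p = 5.84e-05). After thinning it averaged 22.1 CPM in marker-high wells and 11.1 CPM in the rest, higher on 3 of 4 plates, from 8 and 12 transcripts. The abundant ITGB1 gene (ENSDARG00000071863) had a log2 fold change of -0.02 ± 0.10 between the same wells, so the 2 genes moved apart. That contrast between them was not tested as such.

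ITGB4, the partner of alpha 6, had 33.7 and 29.4 CPM in the marker-high wells of the prrx1b-/- plates and 47.5 and 10.6 CPM in those of the WT plates, against 7.73 and 14.3 CPM in the rest of the prrx1b-/- plates and 9.35 and 20.3 CPM in the rest of the WT plates. It was higher on 3 of 4 plates and lower on WT plate 2, at a log2 fold change of 1.4 ± 0.34 (SE, edgeR adjusted p = 0.00317). The call was lost without prrx1b-/- plate 1 or without WT plate 1, at adjusted p of up to 0.0542, and after thinning ITGB4 averaged 32.8 CPM in marker-high wells and 21.1 CPM in the rest. ITGA3 averaged higher on 4 of 4 plates, with 12.6 and 12.9 CPM in the marker-high wells of the prrx1b-/- plates and 21.2 and 9.28 CPM in those of the WT plates, against 6.96 and 8.02 CPM in the rest of the prrx1b-/- plates and 9.35 and 6.94 CPM in the rest of the WT plates. Its log2 fold change was 0.95 ± 0.31 (SE, edgeR adjusted p = 0.0267). This call was lost without either prrx1b-/- plate or without WT plate 1.

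ITGA5 had a log2 fold change of 0.37 ± 0.11 (SE, edgeR adjusted p = 0.0212), with 197 and 227 CPM in the marker-high wells of the prrx1b-/- plates and 254 and 257 CPM in those of the WT plates, against 186 and 197 CPM in the rest of the prrx1b-/- plates and 171 and 233 CPM in the rest of the WT plates. The sets overlapped, and 6 of 9 alternatives lost the call, among them thinning and leaving out prrx1b-/- plate 2 or WT plate 1. The more abundant ITGA11 gene (ENSDARG00000007950) had 3 and 1 transcripts in the marker-high wells of the prrx1b-/- plates and 0 and 0 in those of the WT plates, against 98 transcripts in the rest of all plates, where it stood at 10.1 and 11.8 CPM on the prrx1b-/- plates and 16.6 and 6.40 CPM on the WT plates. It was lower on 4 of 4 plates, without overlap (edgeR adjusted p = 0.000241), and still on 4 of 4 plates after thinning. itgam.1 had 5.90 and 6.43 CPM in the marker-high wells of the prrx1b-/- plates and 15.2 and 3.98 CPM in those of the WT plates, against 16.6 and 11.8 CPM in the rest of the prrx1b-/- plates and 26 and 7.47 CPM in the rest of the WT plates. The sets overlapped, and it was lower on 4 of 4 plates at a log2 fold change of -0.87 ± 0.31 (SE, edgeR adjusted p = 0.0452), a call lost in each of the 4 fits that left out 1 plate.

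**Figure D5:**
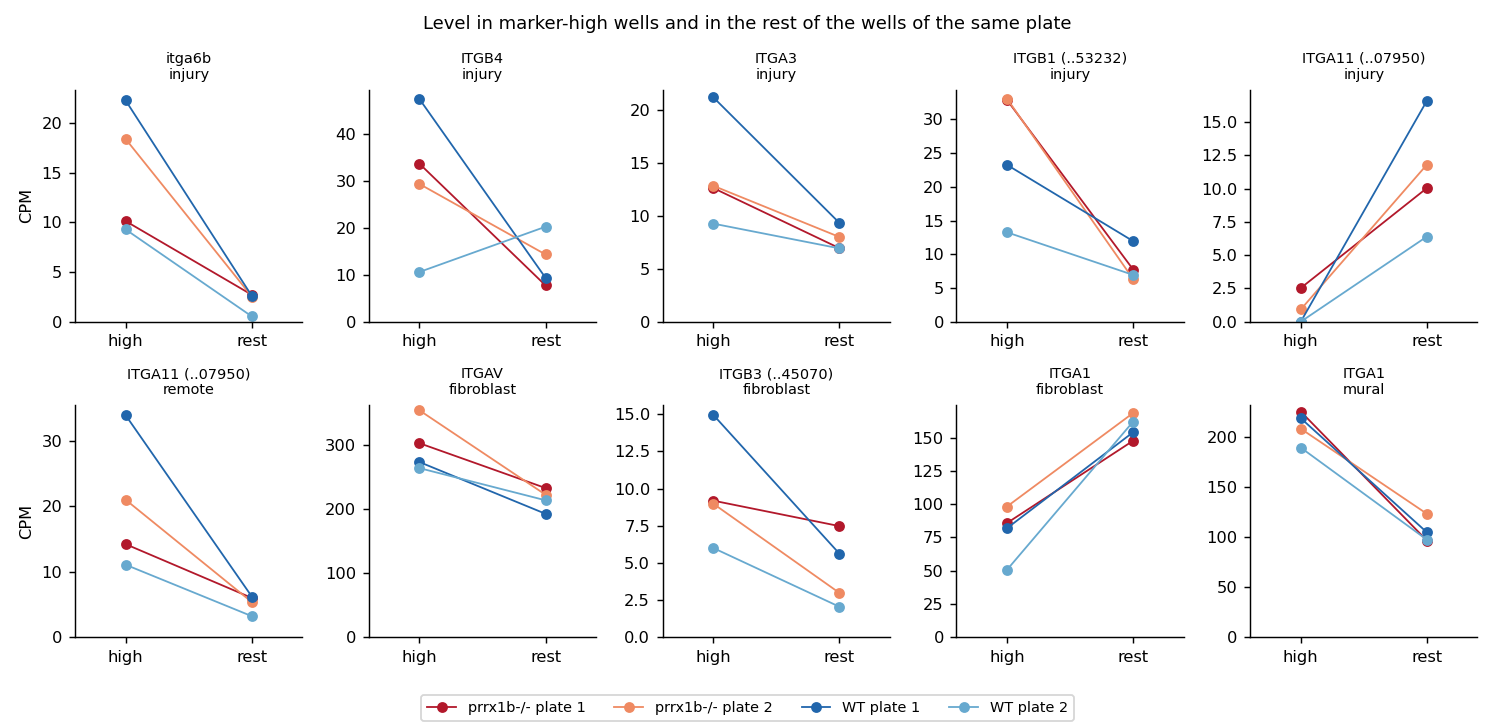
Level in CPM in marker-high wells (left in each panel) and in the rest of the wells of the same plate (right), with 1 line for each plate (prrx1b-/- in red tones, WT in blue tones). The panels show a selection of the called integrin subunit genes, with the list named above each panel. Every axis starts at 0 and has its own scale. All 4 lines run the same way in every panel except that of ITGB4, where WT plate 2 has 10.6 CPM in marker-high wells and 20.3 CPM in the rest. The mural calls of the second ITGB1 gene and ITGB4, where WT plate 2 also went the other way, are among those not drawn.

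In remote epicardium marker-high wells, 1 of 15 members was called higher and none lower by edgeR, or 6.67%, against 7.38% higher and 8.05% lower among 9742 genes. This was the more abundant ITGA11 gene, with 14.2 and 21 CPM in the marker-high wells of the prrx1b-/- plates and 33.9 and 11.1 CPM in those of the WT plates, against 6 and 5.37 CPM in the rest of the prrx1b-/- plates and 6.22 and 3.22 CPM in the rest of the WT plates. The sets did not overlap, at a log2 fold change of 1.79 ± 0.36 (SE, n = 4 plates, edgeR adjusted p = 0.00219). This gene passed the filter on low counts through the marker-high wells, so it reached the test through the wells where it was high. The marker-high wells gave 47 of its 102 transcripts, and after thinning it was higher on 2 plates and lower on the other 2. ITGA3, at -1.20 ± 0.46 (SE), was the 1 member below 0 with an unadjusted p under 0.05 (edgeR adjusted p = 0.0914).

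In fibroblast marker-high wells, ITGAV was higher and ITGA1 was lower. Of 16 members, 3 were called higher and 3 lower, or 18.8% each, against 15.3% higher and 16.4% lower among all 9775 genes, which is near the background. ITGAV had 303 and 355 CPM in the marker-high wells of the prrx1b-/- plates and 274 and 264 CPM in those of the WT plates, against 233 and 223 CPM in the rest of the prrx1b-/- plates and 193 and 214 CPM in the rest of the WT plates. The sets did not overlap, and the log2 fold change was 0.48 ± 0.09 (SE, n = 4 plates, edgeR adjusted p = 0.000628), with the call lost after thinning (adjusted p = 0.173). In mural marker-high wells, ITGAV reached a similar mean, 304 CPM against 239 CPM in the rest. There it was higher on 3 of 4 plates and not called (0.21 ± 0.13 SE, edgeR adjusted p = 0.316). An ITGB3 gene (ENSDARG00000045070), a partner of alpha v, had 9.19 and 8.99 CPM in the marker-high wells of the prrx1b-/- plates and 15 and 6.01 CPM in those of the WT plates, against 7.48 and 2.98 CPM in the rest of the prrx1b-/- plates and 5.62 and 2.05 CPM in the rest of the WT plates. It was higher on 4 of 4 plates at 1.09 ± 0.37 (SE, edgeR adjusted p = 0.0307), and the call was lost without prrx1b-/- plate 2, WT plate 1 or WT plate 2. This gene passed the filter on low counts through the marker-high wells, and so reached the test through the wells where it was high. Of the other partners of alpha v, ITGB5 did not pass (0.36 ± 0.20 SE, edgeR adjusted p = 0.181), and the other ITGB3 gene (ENSDARG00000056767) averaged 1.22 CPM in marker-high wells and 1.37 CPM in the rest.

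ITGA1 was lower in the same wells, with 85.8 and 98.2 CPM in the marker-high wells of the prrx1b-/- plates and 81.9 and 50.6 CPM in those of the WT plates, against 148 and 168 CPM in the rest of the prrx1b-/- plates and 154 and 162 CPM in the rest of the WT plates. No plate overlapped, and the log2 fold change was -0.99 ± 0.14 (SE, n = 4 plates, edgeR adjusted p = 3.22e-05). This call held in all 9 alternatives, thinning included, where ITGA1 averaged 87.7 CPM in marker-high wells and 176 CPM in the rest. The other 3 calls were less stable. Of these genes, the more abundant ITGA11 gene and itgae.2 passed the filter on low counts through the rest of the wells, where they were high. itgb2 had 55.1 and 55.3 CPM in the marker-high wells of the prrx1b-/- plates and 54.6 and 72.9 CPM in those of the WT plates, against 36 and 44.2 CPM in the rest of the prrx1b-/- plates and 44.4 and 50.6 CPM in the rest of the WT plates. It was higher without overlap at 0.46 ± 0.14 (SE, edgeR adjusted p = 0.0199), but lower on 3 of 4 plates after thinning, and the call was lost without prrx1b-/- plate 1 or WT plate 2. The more abundant ITGA11 gene was lower on 4 of 4 plates at -1.09 ± 0.38 (SE, edgeR adjusted p = 0.0361), from 25 transcripts in marker-high wells and 77 in the rest. After thinning it averaged 19.5 CPM in marker-high wells and 14.7 CPM in the rest, lower on 2 plates and higher on 1, and the call was lost without prrx1b-/- plate 1 or WT plate 1. itgae.2 (ENSDARG00000057787), an alpha E chain of lymphocytes, was lower at -1.57 ± 0.53 (SE, edgeR adjusted p = 0.0304), from 13 transcripts in marker-high wells and 55 in the rest, a call lost without either prrx1b-/- plate. Its highest level in this comparison, 15.7 CPM in the rest of WT plate 1, stood on the plate with the most leukocyte markers. Of the 28 transcripts behind that level, 13 came from 1 well. On that plate, 4 of the 20 wells with itgae.2 held a leukocyte marker, or 20%, against 9.79% of the other wells. In mural marker-high wells of the same plate, itgae.2 had 40.9 CPM, against 6.31 CPM in the rest. It was higher there on 3 of 4 plates. Which cells these transcripts came from was not tested.

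In mural marker-high wells, ITGA1 was higher and the second ITGB1 gene and ITGB4 were lower. Of 15 members, 1 was called higher and 2 lower, or 6.67% and 13.3%, against 7.95% and 9% of all 9999 genes. ITGA1 had 226 and 209 CPM in the marker-high wells of the prrx1b-/- plates and 219 and 190 CPM in those of the WT plates, against 96.6 and 123 CPM in the rest of the prrx1b-/- plates and 105 and 97.5 CPM in the rest of the WT plates. The sets did not overlap, the log2 fold change was 0.87 ± 0.14 (SE, n = 4 plates, edgeR adjusted p = 3.29e-05), and the call held in all 9 alternatives, with 269 CPM in marker-high wells and 116 CPM in the rest after thinning. Among sums over wells, fewer cells with a transcript and fewer transcripts per cell cannot be told apart.

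The second ITGB1 gene (ENSDARG00000053232) had 8.46 and 3.14 CPM in the mural marker-high wells of the prrx1b-/- plates and 1.86 and 11.6 CPM in those of the WT plates, against 17.3 and 17.4 CPM in the rest of the prrx1b-/- plates and 18.9 and 8.20 CPM in the rest of the WT plates. It was lower on 3 of 4 plates at -1.50 ± 0.45 (SE, edgeR adjusted p = 0.0188). ITGB4 had 12.7 and 6.27 CPM in the marker-high wells of the prrx1b-/- plates and 3.71 and 20.8 CPM in those of the WT plates, against 16.6 and 22 CPM in the rest of the prrx1b-/- plates and 26.5 and 16.9 CPM in the rest of the WT plates. It was likewise lower on 3 of 4 plates, at -1.09 ± 0.37 (SE, edgeR adjusted p = 0.0435), and for both genes WT plate 2 went the other way. Both calls were lost without either prrx1b-/- plate and without WT plate 1. Neither is independent of the injury epicardium calls. Only 4.35% to 6.59% of the injury epicardium marker-high wells of a plate were mural marker-high, and the others lay in the rest. The injury epicardium marker-high wells gave 108 of the 179 transcripts of the second ITGB1 gene and 127 of the 237 of ITGB4. After thinning, the second ITGB1 gene averaged 13.6 CPM in marker-high wells and 13.9 CPM in the rest, and ITGB4 22 CPM in marker-high wells and 24.8 CPM in the rest.

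The ligands and adaptors that were not themselves markers were counted in the same fits. In injury epicardium marker-high wells, 3 ligand genes of 37 were called higher and 24 lower, and 7 adaptor and kinase genes of 42 higher and 12 lower, beside 12.8% higher and 10.6% lower among all genes. In fibroblast marker-high wells, 19 ligand genes of 37 were called higher and 5 lower, and 14 adaptor and kinase genes of 41 higher and 9 lower, beside 15.3% and 16.4% of all genes. In remote epicardium marker-high wells, 10 ligand genes of 38 were called higher and 8 lower, and 3 adaptor and kinase genes of 42 higher and 7 lower, beside 7.38% and 8.05% of all genes. In mural marker-high wells, 8 ligand genes of 38 were called higher and 8 lower, and 12 adaptor and kinase genes of 42 higher and 6 lower, beside 7.95% and 9% of all genes. The median log2 fold change of the ligands was -0.61 in injury epicardium, 0.52 in fibroblast, 0.13 in remote epicardium and 0.11 in mural marker-high wells. That of the adaptors and kinases was -0.15, 0.11, -0.001 and 0.18 in the same order. Over all genes tested, the medians ran from -0.013 to 0.009.

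Whether a subunit sat in other wells in the mutant was tested as the difference of the marker-high effect, prrx1b-/- minus WT. edgeR called no member for any of the 4 lists, against 0.0103% of all genes for remote epicardium, 0.0306% for injury epicardium, 0.0205% for fibroblast and 0.24% for mural. DESeq2 was not run for this comparison. At an unadjusted p under 0.05, there was 1 member for injury epicardium, 2 for mural and none for remote epicardium or fibroblast. These were the second ITGB1 gene in injury epicardium marker-high wells, at a difference of 1.33 ± 0.51 in log2 fold change (SE, edgeR adjusted p = 0.824), and ITGAV and ITGA5 in mural marker-high wells, at -0.55 ± 0.24 and -0.60 ± 0.26 (SE, edgeR adjusted p = 0.713 and 0.719).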

How the data were processed

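Per the labels, 1 cell was sorted into each of the 384 wells of a plate, and libraries were made by CEL-Seq2. The authors mapped reads to Zv9, with BWA 0.6.2 among the tools in the submitters' processing notes, and deposited expected counts per gene and well: the number of distinct molecular barcodes, adjusted for chance collisions of barcodes and left unscaled for depth. All 3129665 values above 0 matched that correction for barcodes of 6 bases within 0.005, whereas the methods name 4 bases. Spike-ins were set aside, wells under 1000 transcripts were dropped, and the others were summed per plate and rounded. Doublets were not looked for. edgeR 4.0.16 (filterByExpr, TMM, quasi-likelihood test) was fitted over all genes, with Benjamini-Hochberg adjustment and a threshold of 0.05. Each SE was the absolute log2 fold change divided by the square root of the quasi-likelihood F statistic. DESeq2 1.42.0 was an alternative for the genotypes. Marker-high sums were fitted with the plate as a block. Scores were means of z scores of ln(1 + transcripts per 10000). The genotype fit and the injury epicardium fit were run on simulated sums without a plate effect. Only genes with higher counts were changed there, so this gives no measure for the rare members. The alternatives were RLE scaling, no filter, wells thinned to 1000 transcripts and each plate left out. For the genotypes they also included the replicate block (by plate number), at least 2000 transcripts per well and wells over 30% mitochondrial left out. For the marker-high sums they also included a fit without the plate as a block and the upper 50% of the wells. Members with at least 100 transcripts are described singly, the others only where called, alone in their class or with 3 or fewer transcripts. Members and lists were chosen with earlier results of these data known. Of the integrin ligands, 58 of 70 listed names were matched, and of the adaptors and kinases, 63 of 71. Genome positions and sequences are not reported here, because no annotation of the build was used.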

Additional observations from a re-analysis of the deposited data

How the results depend on the processing

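No member was called between the genotypes under any alternative, although the count over all genes, 109, came to 523 without the filter on low counts, 176 with DESeq2, 67 after thinning and 99 to 582 with 1 plate left out. The deviations of same-numbered plates from their genotype means had a correlation of r = 0.04 over genes. With 2 plates per genotype this is a single value, which cannot decide whether same-numbered plates shared a batch. Under the replicate block, 476 genes were called, and 3 adaptors higher and 1 lower. Ligands called higher, 2, came to 1 with RLE scaling or thinning, 5 without the filter or with DESeq2, 0 at 2000 transcripts and 0 to 16 with 1 plate left out; those called lower, 1, to 2 without the filter, 0 after thinning and 0 to 3 with 1 plate left out. Adaptors called higher came to 3 without the filter, 1 with DESeq2 and 0 to 4 with 1 plate left out, those called lower to 0 to 1. A fit without 1 plate of a genotype assumes that its lone plate varies like the others.

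Thinning left 2906 to 3029 genes to test in marker-high wells and called 0 members higher for remote epicardium, injury epicardium and fibroblast, 0 lower for injury epicardium and mural, and 1 lower for fibroblast. In remote epicardium marker-high wells, 1 member was lower without the filter or in the upper 50% of the wells, and 0 to 1 with 1 plate left out. With 1 plate left out, 2 to 5 members were higher and 1 to 2 lower in injury epicardium, 1 to 3 higher and 1 to 4 lower in fibroblast, and 1 to 2 higher and 0 to 2 lower in mural marker-high wells. Without the plate as a block, 0 were lower in injury epicardium, 1 higher in fibroblast and 1 lower in mural. In the upper 50%, 1 was lower in injury epicardium and 2 higher in mural. Signs turned in the upper 50% for the more abundant ITGA11 gene in fibroblast marker-high wells (0.21), after thinning for itgb2 there (-0.068) and for summed alpha subunits by genotype (-6.09 CPM), and without the filter for ITGB5 by genotype (0.0054). With 1 plate left out, uncalled genotype log2 fold changes ran from -0.29 to 0.063 for ITGA5, -0.85 to 0.84 for itgam.1, -0.48 to 0.25 for ITGA3, -0.38 to 0.79 for ITGA11, -0.39 to 0.016 for itgb2 and -0.25 to 0.24 for ITGB5, and summed alpha subunits from -12.2 to 44.6 CPM. ITGA1 kept its calls in fibroblast and mural marker-high wells in all alternatives, thinning included. The calls of itga6b, the second ITGB1 gene and ITGA11 in injury epicardium and of ITGA11 in remote epicardium marker-high wells held wherever they could be tested. Of these genes, itga6b and ITGA11 passed the filter on low counts through the wells where they were high. All of these genes were too rare to be tested after thinning, so their calls were not checked at equal depth. ITGA11 in remote epicardium marker-high wells was then higher on 2 plates and lower on 2.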
